A study of Mus musculus with 12 samples.

Results

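Solute carriers are the largest family of membrane transporters in mammals, and the genes described here are those whose symbol on the array platform was Slc, a family number, the letter a and a member number. Slc7a11, Slc7a2 and Slc2a1 were left out of the set. A gene entered if it had a probe with a detection p under 0.05 on at least 3 of the 12 arrays, and it was read from the passing probe with the highest mean signal. Of 324 such symbols on the array, 160 passed and are described here, out of 9795 genes tested in all, and 164 did not pass. Among the 160, 113 were detected on all 12 arrays, and 13 were detected on none of the 3 arrays of PBS cells without LPS. Their symbols, not measured values, chose them, apart from the detection filter, so a gene detected in only some groups could enter because it was high there. The symbols of 4 members ran on past the family pattern. Slc7a6os is an opposite-strand gene, Slc9a3r1 a scaffold protein and Slc4a1ap an adaptor, none of them a transporter, and Slc28a2b is a close paralog of Slc28a2.

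The study measured RNA of mouse bone marrow-derived macrophages (BMDM) on Illumina bead arrays, in 4 groups of 3. All cells came from the strain C57BL/6 at 9 to 16 weeks of age and were differentiated for 8 to 9 days in medium with 20% supernatant of L929 fibroblasts, a source of macrophage growth factor. The groups were cells given cyclodextrin at 4% for 4 h, washed and given LPS at 10 ng/ml for 6 h; cells given HDL at 300 ug/ml for 24 h, washed and given the same LPS; cells given PBS and the same LPS; and cells given PBS and no LPS. Lipopolysaccharide (LPS) is a bacterial cell wall component sensed by macrophages, HDL (written nHDL in the labels, which do not spell out the n) is the lipoprotein that accepts cholesterol leaving cells, and cyclodextrin is a sugar ring that pulls it out of membranes. The labels give no contact time for PBS, so the effect of a compound and that of its contact time and handling cannot be told apart. The labels do not say whether the 3 samples of a group are separate animals, separate cultures or repeats of the same RNA. The p-values therefore measure only how far these samples spread, and that spread may be technical.

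Solute carriers move sugars, amino acids, peptides, nucleosides, vitamins, metal ions, lipids and inorganic ions across the plasma membrane and the membranes of organelles, mostly as facilitated carriers or driven by an ion gradient. In macrophages they are known for recycling iron from ingested red cells, for withholding metals from ingested bacteria, for carrying peptides and nucleosides out of lysosomes and for feeding glycolysis. The Slc25 family forms the carriers of the mitochondrial inner membrane.

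The share of probes detected per array was 33.3 to 35.2% in cyclodextrin cells with LPS, 35.8 to 36.2% in HDL cells with LPS, 36.4 to 36.9% in PBS cells with LPS and 36.1 to 38.6% in PBS cells without LPS. Correlations of log2 signals were 0.989 to 0.996 between arrays of a group, 0.985 to 0.993 between groups with LPS, and 0.858 to 0.883 between arrays with and without LPS. Macrophage markers were detected throughout, with 7 of 9 listed symbols passing the filter, and no B cell or erythroid marker passed it. Of 6 dendritic cell markers Clec9a and Siglech passed, with a summed raw signal of 152 to 188 over all groups. In HDL and in PBS cells with LPS, 1 of these markers was detected on all 3 arrays, and in the other groups neither was. Of 7 neutrophil markers 4 passed, 2 of them detected on all arrays of every group, with a summed raw signal of 869 to 1434 in HDL cells and 916 to 1110 in the other groups. Prf1, of the T and NK cell markers, had 375 to 638 over the groups with LPS, against 609 to 695 in PBS cells without LPS. The stromal marker Dcn had 74.0 to 82.2 in cyclodextrin, 89.2 to 121 in HDL and 95.5 to 99.5 in PBS cells with LPS, against 65.9 to 77.3 in PBS cells without LPS. Of 4 listed mast cell and basophil markers, Kit and Fcer1a passed, and their summed raw signal was 310 to 371 in PBS cells without LPS and at most 168 in the other groups. The megakaryocyte marker Pf4 had 5829 to 6052 in cyclodextrin cells, against 7161 to 9144 in PBS cells with LPS, and the part of such differences in the results below was not tested. The arrays measured bulk RNA, so fewer cells of a type and less RNA per cell cannot be told apart.

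LPS alone, compared in cells given PBS, changed most solute carrier genes. Limma called 43 members higher and 59 lower at a Benjamini-Hochberg adjusted p under 0.05, or 63.8% of them, beside 60.6% of all genes tested (22.2% higher and 38.4% lower). Among the called, 21 rose and 20 fell at least 2-fold, and 23% of all genes changed this much. The arrays with and without LPS did not overlap for 112 members, or 70.0%, beside 65.2% of all genes. The median log2 fold change was -0.036 over the members and -0.14 over all genes. How many rose and how many fell depended on how the arrays were scaled: with median scaling over all probes 33 members were higher and 76 lower, beside 1508 and 5241 of all genes, and with median scaling over the detected probes 59 members were higher and 43 lower, beside 3101 and 2769 of all genes. The median over all genes was -0.42 and 0.045 under these scalings, so small LPS changes below are relative to the quantile scaling, while all 16 genes with the largest changes kept their call and direction under every alternative that tested the gene. Slc5a6 and Slc25a30 were not tested under the stricter detection filter. Among other genes named below, the calls of Slc1a5, Slc25a1, Slc27a1 and Slc6a8 were lost with median scaling over the detected probes, and that of Slc3a2 with median scaling over all probes.

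**Figure D1:**
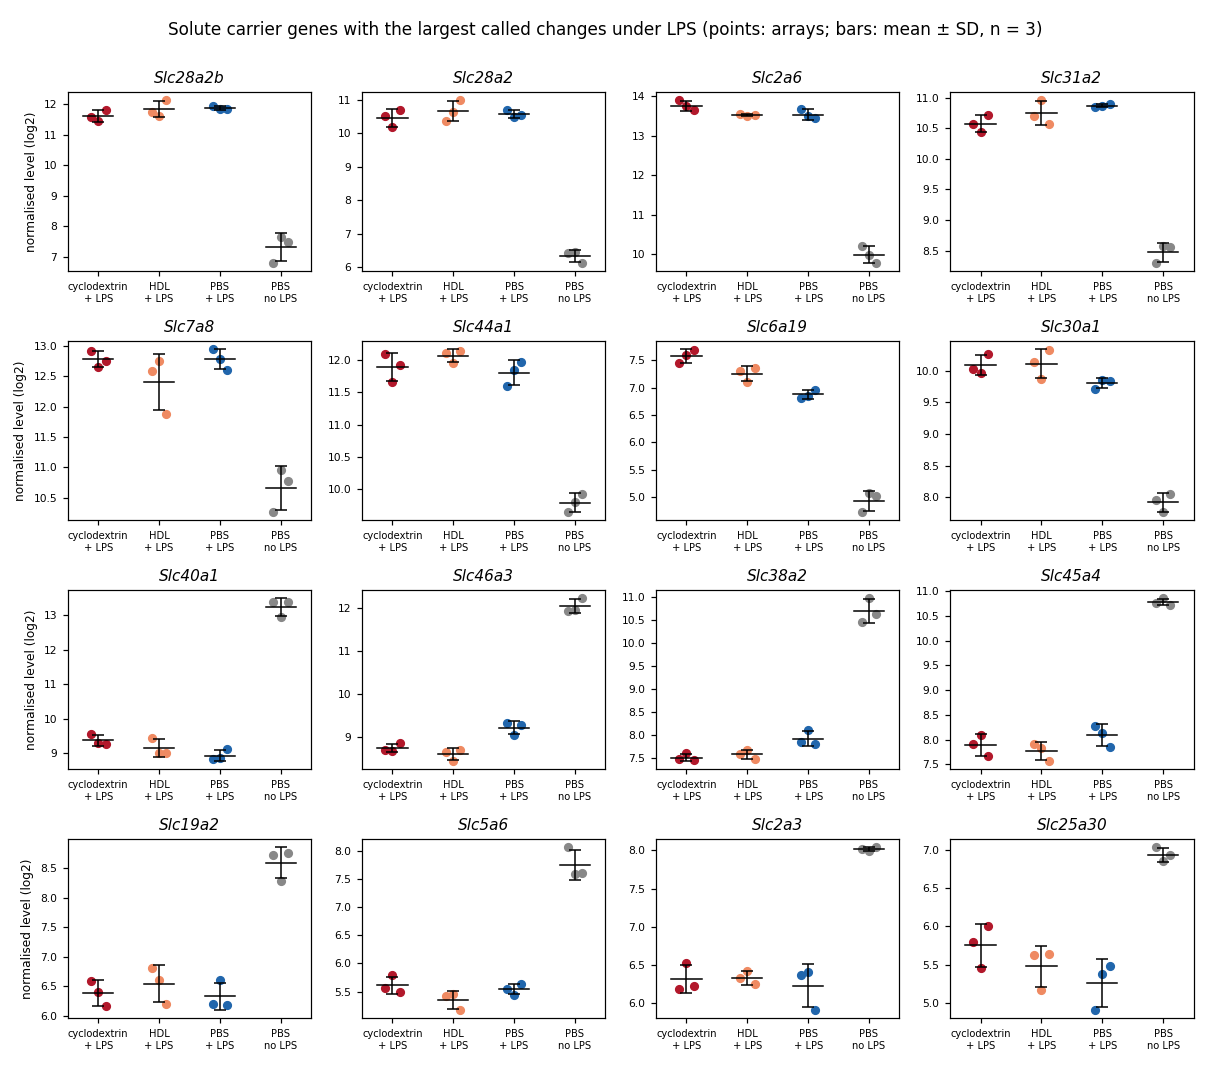
Normalised log2 signal (y axis) of the 16 solute carrier genes with the largest called LPS changes, the top 8 higher and the bottom 8 lower, in cyclodextrin, HDL and PBS cells with LPS and PBS cells without LPS (x axis). Points are arrays and bars the mean ± SD of 3 arrays. In each panel the 3 PBS arrays with LPS lie apart from the 3 without LPS, and the arrays with cyclodextrin or HDL lie nearer to those with PBS and LPS.

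The largest rises belonged to nucleoside transporters. Slc28a2 encodes a sodium-driven carrier that brings purine nucleosides into the cell. Its normalised log2 signal was 10.71, 10.47 and 10.55 in PBS cells with LPS, against 6.41, 6.47 and 6.12 in PBS cells without LPS. The neighbouring paralog Slc28a2b had 11.94, 11.83 and 11.84 with LPS, against 6.79, 7.64 and 7.49 without LPS. The arrays with LPS lay far above those without for both probes. The log2 fold changes were 4.24 ± 0.17 (SE, n = 3 each, limma adjusted p = 2.36e-11) for Slc28a2 and 4.56 ± 0.20 (adjusted p = 4.92e-11) for Slc28a2b, or 18.9-fold and 23.7-fold. Below, levels are normalised log2 signals, and a value given with ± beside an adjusted p is a log2 fold change with its SE over 3 arrays in each group. The genes are close paralogs, and how far each probe also reads the other's RNA was not tested. The lysosomal nucleoside transporter Slc29a3 also rose, with a log2 fold change of 0.70 ± 0.15 (adjusted p = 0.00124). The plasma membrane transporter Slc29a1 was not called at -0.23 ± 0.11 (adjusted p = 0.0768), but its other probe was called lower at -0.67 (adjusted p = 0.0395). Of 11 transporters of nucleosides, nucleotide sugars and acetyl-CoA, 3 were called higher and 4 lower, beside 22.2% and 38.4% of all genes. The group's counts became 3 and 8 with median scaling over all probes and 3 and 2 over the detected probes.

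The promoters of the pair are shown because these genes rose together and lie near each other on the same chromosome. Each runs from 250 bases before to 50 bases after a RefSeq start on the plus strand of GRCm38.p6, at chr2:122426185-122426484 for Slc28a2 and chr2:122484691-122484990 for Slc28a2b. Capitals mark matches, on either strand, to the interferon-stimulated response element core (GAAA, any 2 bases, GAAA), an NF-kB motif (GGG, then ACTTT or AATTT, then CC), the metal response element TGCACNC or TGCGCNC, and the E-box CACGTG, which do not overlap here.
Slc28a2: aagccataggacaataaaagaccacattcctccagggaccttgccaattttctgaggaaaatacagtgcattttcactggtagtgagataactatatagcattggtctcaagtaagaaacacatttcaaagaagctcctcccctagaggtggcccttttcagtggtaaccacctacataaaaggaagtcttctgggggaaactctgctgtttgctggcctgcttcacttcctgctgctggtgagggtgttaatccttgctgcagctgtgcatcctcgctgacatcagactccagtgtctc
Slc28a2b: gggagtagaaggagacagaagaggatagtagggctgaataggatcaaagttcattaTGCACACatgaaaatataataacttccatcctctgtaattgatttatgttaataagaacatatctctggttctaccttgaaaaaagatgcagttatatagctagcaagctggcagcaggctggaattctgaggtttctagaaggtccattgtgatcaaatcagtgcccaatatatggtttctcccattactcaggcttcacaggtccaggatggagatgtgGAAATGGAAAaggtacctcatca
Slc28a2 had no match to any of these motifs, and Slc28a2b had 1 response element core and 1 metal response element. RefSeq promoters were found for 125 members, 173 in all. The interferon-stimulated core was in 1.16% of the 173 and in 3.44% of all 32851 promoters, and the NF-kB motifs in 0 and 0.244%. Metal response elements were in 34.7% of member promoters and 25.7% of all, and E-boxes in 14.5% and 7.15%. Among promoters of members called higher with LPS, 17 of 50 held a metal response element, against 16 of 54 for members called lower and 27 of 69 for those not called. A match describes letters in this window and is not evidence of binding.

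Genes of metal and heme transport moved in both directions, 10 of 27 called higher and 7 lower, beside 22.2% and 38.4% of all genes. With median scaling over all probes the group's counts were 9 and 10, and over the detected probes 12 and 6. The deepest fall of all members was in Slc40a1, which encodes ferroportin, the exporter of iron from cells. Slc40a1 had a log2 signal of 8.82, 8.85 and 9.12 in PBS cells with LPS, against 13.38, 12.93 and 13.37 in PBS cells without LPS. The groups were widely separated, with a log2 fold change of -4.30 ± 0.16 (adjusted p = 1.01e-11), or 19.7-fold lower with LPS. The heme exporter of the phagolysosome, Slc48a1, also fell, with -0.98 ± 0.13 (adjusted p = 1.26e-05). Slc11a2, which carries divalent metals out of endosomes, had 11.07, 11.01 and 11.03 with LPS, against 9.46, 9.91 and 9.78 without LPS. No array overlapped, the log2 fold change was 1.32 ± 0.12 (adjusted p = 2.04e-07), and its other probes gave 2.05 and 2.41. Slc11a1, the phagosomal metal pump of which C57BL/6 mice carry an inactive allele, was not called, at -0.25 ± 0.11 (adjusted p = 0.062). Of its 4 probes 1 was called lower (adjusted p = 0.0443), and the probes not used ranged from -0.35 to 0.079.

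Both copper transporters rose. The copper transporter of endosomes and lysosomes, Slc31a2, had 10.84, 10.87 and 10.90 in PBS cells with LPS, against 8.29, 8.57 and 8.56 without LPS, and no array overlapped. Its log2 fold change was 2.39 ± 0.13 (adjusted p = 5.19e-10), beside 0.87 ± 0.12 (adjusted p = 1.39e-05) for the copper importer Slc31a1. Of 6 genes of the Slc30 family, most of which take zinc out of the cytosol, 4 were called higher and 1 lower. Over all genes 22.2% were called higher and 38.4% lower. Slc30a1, the zinc exporter of the plasma membrane, had 9.71, 9.86 and 9.83 with LPS, against 7.95, 7.77 and 8.06 without LPS, a log2 fold change of 1.88 ± 0.13 with no overlap (adjusted p = 1.63e-08). Slc30a4 was not well above background on any array without LPS and was at least 1.41-fold higher with LPS (adjusted p = 6.25e-04), a bound set on the lowest signals that were. In the Slc39 family, which brings zinc into the cytosol, 3 of 13 genes were called higher and 3 lower, beside the same shares of all genes. Slc39a13 rose with a log2 fold change of 1.52 ± 0.13 (adjusted p = 1.67e-07), where another of its 3 probes gave 0.32 and was not called. Slc39a14, an importer of zinc and non-transferrin iron, was detected on no array without LPS and was at least 1.46-fold higher (adjusted p = 2.72e-05). Slc39a8 was not called, with -0.034 ± 0.27 (adjusted p = 0.927).

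**Figure D2:**
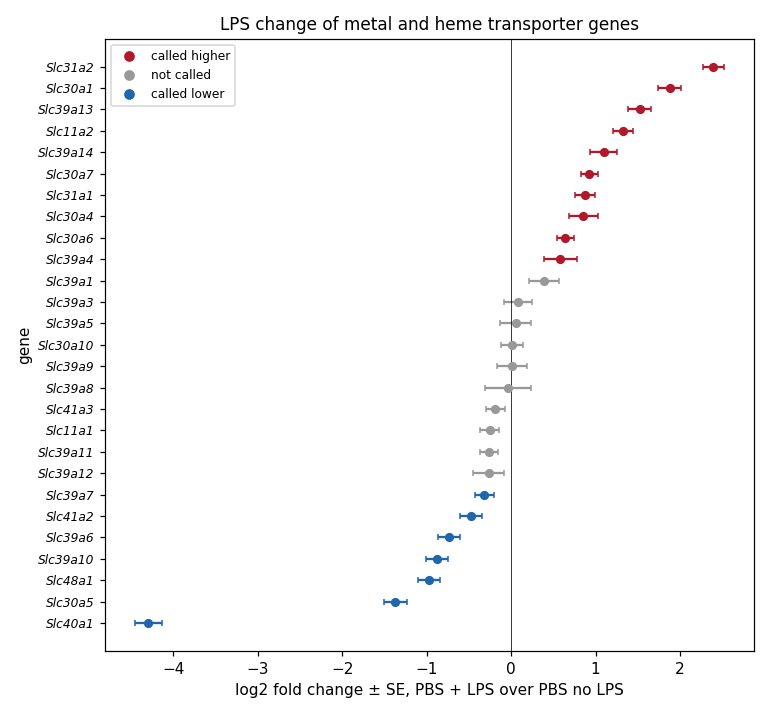
LPS change of the 27 metal and heme transporter genes as the log2 fold change of PBS cells with LPS over PBS cells without LPS (x axis), with 1 gene per line (y axis). Points are the fitted change, bars its SE, and colours the call at an adjusted p under 0.05. Slc40a1 at -4.30 lies far below all others, and Slc31a2 at 2.39 and Slc30a1 at 1.88 are the highest.

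The Slc30a1 promoter is printed because metal response elements in this region are known to control the gene in mouse. It lies at chr1:191906531-191906830 on the plus strand, and capitals mark its 2 matches to the metal response element.
Slc30a1: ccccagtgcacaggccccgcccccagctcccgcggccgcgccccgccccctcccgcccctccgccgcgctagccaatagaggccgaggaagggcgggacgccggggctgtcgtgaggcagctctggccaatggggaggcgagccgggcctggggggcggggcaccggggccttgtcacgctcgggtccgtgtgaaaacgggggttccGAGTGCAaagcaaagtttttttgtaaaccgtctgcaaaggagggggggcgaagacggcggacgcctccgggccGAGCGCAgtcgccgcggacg
Storage and handling partners of the metals were listed beside the transporters. The metallothionein Mt2, which binds zinc, had a log2 fold change of 2.47 ± 0.14 (adjusted p = 1.43e-09), while Mt1 was not called at 0.012 ± 0.11 (adjusted p = 0.937). The ferroxidase ceruloplasmin, Cp, was detected on 1 of 3 arrays without LPS and was at least 25.3-fold higher with LPS (adjusted p = 8.62e-13). Hepcidin, Hamp, the peptide that binds ferroportin, was detected on no array without LPS and was at least 2.84-fold higher (adjusted p = 9.16e-09). The transferrin receptor Tfrc was lower at -0.77 ± 0.20 (adjusted p = 0.00406), and the ferritin heavy chain Fth1 was not called at 0.12 ± 0.092 (adjusted p = 0.27). The full list of partners was not limited to metals and also held chaperones of monocarboxylate transporters and users of citrate and arginine. Of its 22 genes measured, 6 were called higher and 6 lower, beside 22.2% and 38.4% of all genes.

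Of 12 sugar and polyol transporters 3 were called higher and 7 lower, where 22.2% of all genes were called higher and 38.4% lower. With median scaling over all probes the counts were 1 and 8, and over the detected probes 4 and 6, beside the counts over all genes given above for these scalings. The highest of them was Slc2a6, a hexose transporter of lysosomal membranes. Its log2 signal was 13.69, 13.50 and 13.44 in PBS cells with LPS, against 10.21, 9.99 and 9.78 in PBS cells without LPS. With no overlap, its log2 fold change of 3.55 ± 0.13 (adjusted p = 5.82e-12) meant 11.7-fold higher signal with LPS. The glucose transporter Slc2a3 had 6.37, 6.41 and 5.91 with LPS, against 8.02, 7.99 and 8.04 without LPS, and fell with a log2 fold change of -1.79 ± 0.14 (adjusted p = 4.19e-08). Slc45a4, of a family known for proton-coupled sugar transport, had 8.28, 8.14 and 7.85 with LPS, against 10.77, 10.86 and 10.73 without LPS. Its groups were far apart, with -2.69 ± 0.14 (adjusted p = 5.84e-10), and its other probes gave -2.51 and -2.08. Slc37a2, a glucose-6-phosphate exchanger of the endoplasmic reticulum, fell with a log2 fold change of -1.33 ± 0.10 (adjusted p = 3.88e-08) and the intracellular hexose transporter Slc2a8 with -0.54 ± 0.12 (adjusted p = 0.0015). The other probe of Slc2a8 gave -0.44 and was not called (adjusted p = 0.0628). Slc5a6 is grouped here by family number but carries biotin and pantothenate. It had 5.55, 5.45 and 5.63 with LPS, against 8.06, 7.59 and 7.60 without LPS, a log2 fold change of -2.21 ± 0.14 (adjusted p = 4.96e-09) with no overlap.

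Lipid, vitamin, organic ion and all other carriers formed the group of remaining members. Of these 21 genes 4 were called higher and 9 lower, beside 22.2% and 38.4% of all genes. The group's counts became 3 and 13 with median scaling over all probes and 7 and 6 over the detected probes. The thiamine transporter Slc19a2 had 6.20, 6.60 and 6.19 in PBS cells with LPS, against 8.73, 8.29 and 8.76 without LPS, and its log2 fold change was -2.27 ± 0.18 (adjusted p = 6.24e-08). Slc46a3, a lysosomal carrier of small molecules, had 9.31, 9.03 and 9.26 with LPS, against 11.93, 11.94 and 12.22 without LPS, a change of -2.83 ± 0.13 (adjusted p = 6.99e-11). Both genes showed every array with LPS well below every array without. The choline transporter Slc44a1 went the other way, with 11.60, 11.84 and 11.98 with LPS, against 9.64, 9.80 and 9.93 without LPS. That was a log2 fold change of 2.02 ± 0.14 (adjusted p = 9.97e-09), and its other probes gave 1.29 and 1.44. The fatty acid transport protein Slc27a1 fell with a log2 fold change of -0.51 ± 0.12 (adjusted p = 0.00208), and Slc27a4 was not called at 0.28 ± 0.14 (adjusted p = 0.0882). Chosen after its values were seen, the vitamin C transporter Slc23a2 rose with a log2 fold change of 1.57 ± 0.15 (adjusted p = 2.73e-07).

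Of 33 genes grouped as amino acid and peptide transporters, 10 were called higher and 9 lower. The 33 include Slc7a6os by its family number, which is not a transporter, and over all genes 22.2% were called higher and 38.4% lower. The group's counts became 9 and 12 with median scaling over all probes and 14 and 5 over the detected probes. Slc7a8, the light chain of a heterodimer that exchanges neutral amino acids, had 12.94, 12.78 and 12.61 in PBS cells with LPS, against 10.26, 10.96 and 10.77 without LPS. The groups did not overlap, the log2 fold change was 2.11 ± 0.21 (adjusted p = 6.68e-07) and its other probe gave 2.30. Slc3a2, the heavy chain that carries Slc7a8 and Slc7a7 to the membrane, rose with a log2 fold change of 0.64 ± 0.16 (adjusted p = 0.00275). Slc7a7, a light chain for cationic amino acids, rose with 0.90 ± 0.12 (adjusted p = 9.38e-06). Of the 3 Slc7a7 probes 2 were called higher, and those not used gave 0.44 and 1.00. Slc15a3, which carries histidine and peptides, muramyl dipeptide among them, out of endosomes and lysosomes, had 14.43, 14.44 and 14.20 with LPS, against 12.65, 12.80 and 12.57 without LPS. It rose with a log2 fold change of 1.68 ± 0.12 (adjusted p = 1.06e-08), whereas its relative Slc15a4 was not called at -0.14 ± 0.12 (adjusted p = 0.3). Whether the 2 changes differ was not tested.

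The largest fall in this group was in Slc38a2, a sodium-coupled carrier of small neutral amino acids that is induced by amino acid shortage. Slc38a2 had 7.85, 8.11 and 7.79 in PBS cells with LPS, against 10.46, 10.97 and 10.64 without LPS. No array overlapped, the log2 fold change was -2.77 ± 0.14 (adjusted p = 2.52e-10) and its other probe gave -2.93. The glutamine carrier Slc1a5 was detected on no array with PBS and LPS and was at least 1.26-fold lower (adjusted p = 0.00817). The creatine carrier Slc6a8 fell with a log2 fold change of -0.65 ± 0.12 (adjusted p = 2.70e-04). The taurine carrier Slc6a6 was not called at -0.084 ± 0.10 (adjusted p = 0.498), but its other probe was called at 0.39, and with median scaling over the detected probes the gene turned to 0.36 and was called higher. The lysosomal carriers Slc36a1 and Slc38a9, the second a sensor of arginine for growth signalling, were not called, at 0.19 ± 0.15 and 0.11 ± 0.15. Slc6a19, a neutral amino acid carrier known from gut and kidney, was detected on no array without LPS. It had 6.81, 6.86 and 6.96 with LPS, against 4.73, 5.07 and 5.02 without LPS, and was at least 3.11-fold higher (adjusted p = 4.2e-09). Its other probe gave 0.10 and was not called (adjusted p = 0.664), so the probes disagree.

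Mitochondrial carriers were called lower for 15 and higher for 7 of 29, and the median of the family was -0.40. Over all genes, too, lower calls (38.4%) outnumbered higher ones (22.2%). With median scaling over all probes 5 carriers were called higher and 16 lower, beside 1508 and 5241 of all genes, and over the detected probes 9 and 10, beside 3101 and 2769. Slc25a30 had 4.90, 5.38 and 5.48 in PBS cells with LPS, where it was detected on 2 of 3 arrays, against 7.03, 6.85 and 6.93 without LPS. It was at least 2.96-fold lower (adjusted p = 1.26e-06) and its groups did not overlap. The citrate carrier Slc25a1, which exports citrate for fatty acid and sterol synthesis, fell with a log2 fold change of -0.41 ± 0.11 (adjusted p = 0.00486), with -0.17 and no call at its other probe. The oxoglutarate carrier Slc25a11 fell with a log2 fold change of -0.56 ± 0.11 (adjusted p = 3.60e-04). Of its 3 probes 2 were called lower, and those not used gave -0.57 and -0.28. The dicarboxylate carrier Slc25a10 and the carnitine carrier Slc25a20 were not called, at 0.034 ± 0.10 and 0.077 ± 0.11. Chosen after their values were seen, the mitochondrial iron importer Slc25a37 rose with a log2 fold change of 1.25 ± 0.14 (adjusted p = 1.83e-06) and the aspartate and glutamate carrier Slc25a12 with 1.32 ± 0.12 (adjusted p = 1.77e-07).

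Ion and monocarboxylate transporters changed in both directions. Of 21 genes grouped as inorganic ion and pH transporters 5 were called higher and 5 lower, beside 22.2% and 38.4% of all genes. By their family numbers the 21 include Slc9a3r1 and Slc4a1ap, which are not transporters. The group's counts became 2 and 6 with median scaling over all probes and 8 and 5 over the detected probes. The phosphate carrier Slc20a1 was detected on 1 of 3 PBS arrays with LPS and was at least 2.47-fold lower (adjusted p = 5.1e-06), but its other probe gave 0.16 and was not called. The sodium, potassium and chloride cotransporter Slc12a2 fell with a log2 fold change of -0.59 ± 0.13 (adjusted p = 0.00123). Of 6 monocarboxylate and citrate transporters 1 was called higher and 3 lower, beside the same shares of all genes. These counts were 1 and 3 with median scaling over all probes and 2 and 3 over the detected probes. The lactate exporter Slc16a3 had 6.52, 6.37 and 6.12 with LPS, against 5.19, 5.99 and 5.95 without LPS, and although these do not overlap it was not called at 0.62 ± 0.26 (adjusted p = 0.0547).

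**Figure D3:**
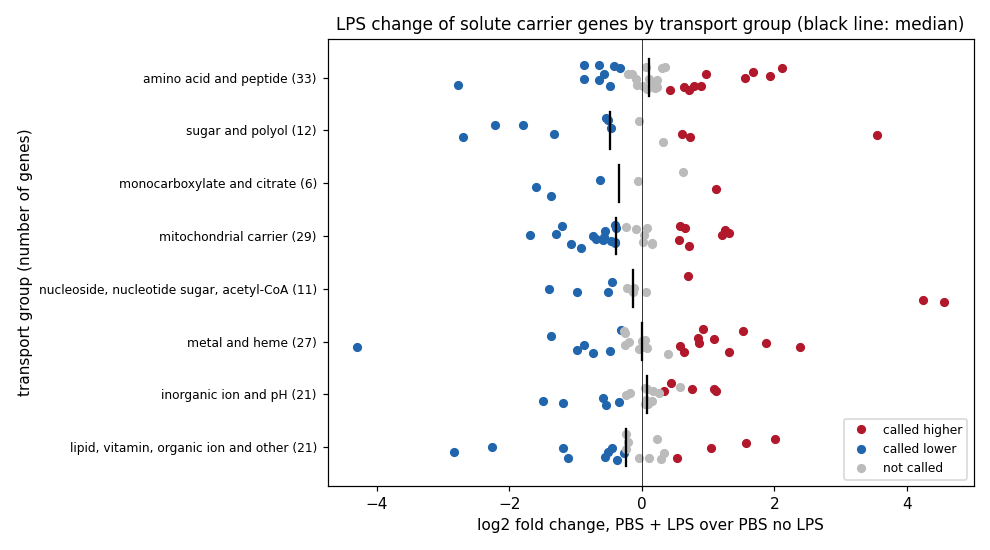
LPS change of all 160 members by transport group, as the log2 fold change of PBS cells with LPS over PBS cells without LPS (x axis), with the group and its number of genes on the y axis. Points are genes, coloured by their call at an adjusted p under 0.05, with random vertical spread, and black lines are group medians. The groups lie on both sides of 0, and the genes beyond 3 are Slc28a2, Slc28a2b and Slc2a6.

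Other transporters were counted beside the members. Of 23 ABC transporters, which are driven by ATP, 3 were called higher and 9 lower with LPS, beside 22.2% and 38.4% of all genes. Of 24 listed solute carriers without an Slc symbol, 3 were called higher and 19 lower. Slco3a1, an organic anion carrier, was the highest of these at 5.25 ± 0.11 (adjusted p = 2.2e-14), with 10.72, 10.55 and 10.62 in PBS cells with LPS, against 5.51, 5.35 and 5.27 without LPS. No difference between these lists and the members was tested.

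HDL changed few solute carrier genes under LPS. The comparisons of HDL and of cyclodextrin with PBS share the 3 PBS arrays with LPS, as does the LPS comparison above, so their changes are given side by side and not related to each other. Limma called 0 members higher and 3 lower in HDL cells with LPS against PBS cells with LPS, beside 1.9% of all genes, 0.796% higher and 1.1% lower. At an unadjusted p under 0.05, 14 of 160 members were higher and 14 lower, beside 837 and 913 of all 9795 genes. The members' median log2 fold change was 0.030, beside -0.0036 over all genes. HDL and PBS arrays did not overlap for 41 members, or 25.6%, beside 26% of all genes. The share of members called was near that of all genes.

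Slc27a3, a fatty acid transport protein that activates long-chain fatty acids, was called lower with HDL. Its log2 signal was 4.84, 4.95 and 4.93 in HDL cells with LPS, against 5.64, 5.56 and 5.74 in PBS cells with LPS. It was detected on none of the HDL arrays and on all 3 PBS arrays, and no array overlapped. The signal was at least 1.26-fold lower with HDL (adjusted p = 0.00784). This call held under all alternatives that tested the gene, with adjusted p up to 0.0403. In cyclodextrin cells with LPS, where it was detected on 1 of 3 arrays, it was not called against the same PBS arrays at -0.25 ± 0.12 (adjusted p = 0.269).

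Slc25a1, the mitochondrial citrate carrier, had 10.11, 10.32 and 10.11 in HDL cells with LPS, against 10.93, 10.83 and 10.79 in PBS cells with LPS. All 3 HDL arrays lay below all 3 PBS arrays, with a log2 fold change of -0.67 ± 0.11 (adjusted p = 0.00889), or 1.59-fold lower. Its other probe gave -0.33 and was not called (adjusted p = 0.132), and without PBS with LPS replicate 7 the adjusted p was 0.0506. With cyclodextrin its change was -0.21 ± 0.11 (adjusted p = 0.306). Acly, which splits the exported citrate in the cytosol, was not called with HDL, at -0.26 ± 0.14 (adjusted p = 0.334).

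The lysosomal carrier Slc46a3 was called lower with both compounds. It had 8.69, 8.66 and 8.84 in cyclodextrin cells with LPS and 8.65, 8.42 and 8.69 in HDL cells with LPS, against 9.31, 9.03 and 9.26 in PBS cells with LPS. The arrays of each compound lay below all PBS arrays with LPS and far below the level without LPS. The log2 fold changes were -0.47 ± 0.13 (adjusted p = 0.0451) with cyclodextrin and -0.61 ± 0.13 (adjusted p = 0.0311) with HDL. The HDL call was lost without any of the 3 HDL or 3 PBS arrays with LPS, with adjusted p up to 0.137. The cyclodextrin call was lost without any of the 3 cyclodextrin or 3 PBS arrays with LPS, or HDL replicate 16, with adjusted p up to 0.173. Without PBS with LPS replicate 7, 1 member was called lower with HDL in place of 3.

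Of the 16 genes with the largest LPS changes, Slc46a3 alone was called with HDL. Slc40a1 stood at 9.45, 9.00 and 9.02 in HDL cells with LPS, overlapping the PBS arrays with LPS, with 0.23 ± 0.16 (adjusted p = 0.475). Slc28a2 was at 0.09 ± 0.17, Slc2a6 at -0.013 ± 0.13, Slc31a2 at -0.13 ± 0.13 and Slc38a2 at -0.34 ± 0.14. The peptide carrier Slc15a4 had 9.64, 9.81 and 9.89 in HDL cells with LPS, against 9.37, 9.21 and 9.47 in PBS cells with LPS. These groups do not overlap, but the change of 0.43 ± 0.12 was not called (adjusted p = 0.0769).

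Few solute carrier genes were called with cyclodextrin under LPS. Limma called 6 members higher and 5 lower in cyclodextrin cells with LPS against PBS cells with LPS, beside 5.07% of all genes, 2.37% higher and 2.71% lower. The arrays did not overlap for 55 members, or 34.4%, beside 26.5% of all genes, and the median change was -0.0080, beside -0.0015 over all genes. No member changed 2-fold. Fewer probes were detected on the cyclodextrin arrays, as given above, and with that share in the model, an alternative chosen after seeing the data, 1 member was called higher and 0 lower, beside 41 and 37 of all genes in place of 232 and 265. The called members' fitted changes kept their direction in that model, with Slc22a4 at 0.59, Slc3a2 at 0.55 and Slc7a7 at -0.51. Of the 33 genes grouped as amino acid and peptide transporters 4 were called higher and 1 lower, beside 2.37% and 2.71% of all genes. Of these 5 calls only that of Slc7a13 was kept in that model. The lower calls also fell to 1 without cyclodextrin replicate 24 or PBS with LPS replicate 9, to 2 without cyclodextrin replicate 22 or PBS with LPS replicates 7 or 8, and to 3 without cyclodextrin replicate 23, HDL replicate 16 or PBS without LPS replicate 3.

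**Figure D4:**
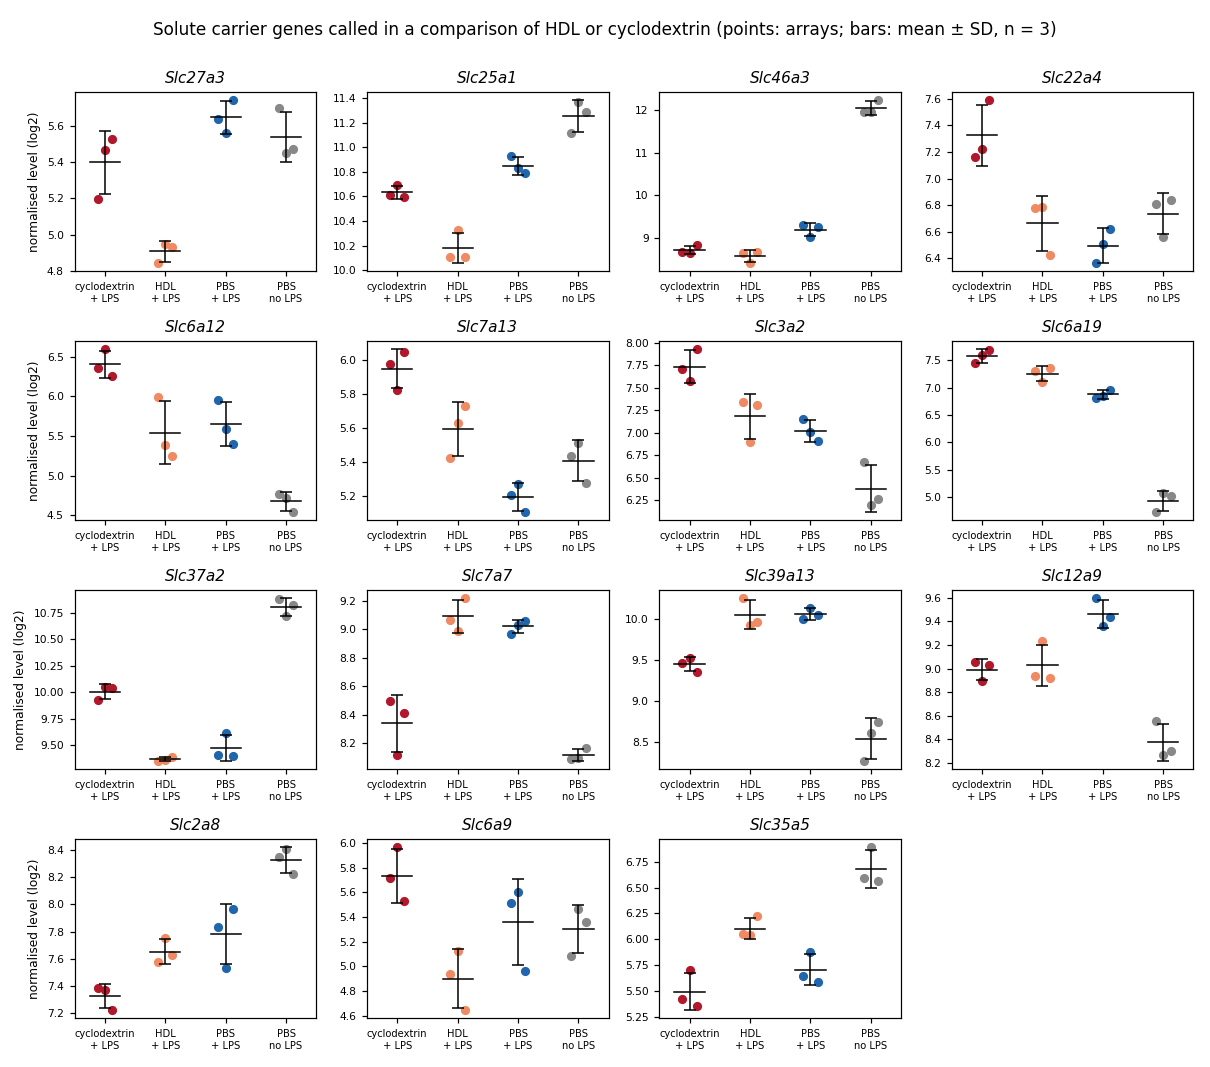
Normalised log2 signal (y axis) of the 15 solute carrier genes called in a comparison of HDL or cyclodextrin, in cyclodextrin, HDL and PBS cells with LPS and PBS cells without LPS (x axis). Points are arrays and bars the mean ± SD of 3 arrays. The HDL arrays of Slc27a3 and Slc25a1 lie below all other arrays, and the cyclodextrin arrays of Slc22a4, Slc6a12 and Slc7a13 lie above all others.

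The highest cyclodextrin change was in Slc22a4, a carrier of ergothioneine and organic cations. It had 7.16, 7.22 and 7.59 in cyclodextrin cells with LPS, against 6.36, 6.51 and 6.62 in PBS cells with LPS. No array overlapped, and the log2 fold change was 0.83 ± 0.15 (adjusted p = 0.00475), or 1.78-fold, beside 0.17 ± 0.15 (adjusted p = 0.581) with HDL. Slc3a2, the heavy chain of the amino acid exchangers, had 7.70, 7.57 and 7.93 with cyclodextrin, against 7.15, 7.00 and 6.90 with PBS. Its groups were apart, at 0.72 ± 0.16 (adjusted p = 0.0179), but the call was lost without cyclodextrin replicate 24 or PBS with LPS replicates 8 or 9, with adjusted p up to 0.0803. Its light chain partner Slc7a7 moved the other way. Slc7a7 had 8.50, 8.12 and 8.41 with cyclodextrin, against 8.97, 9.03 and 9.06 with PBS, and 8.09, 8.10 and 8.17 in PBS cells without LPS. Every cyclodextrin array lay below every PBS array with LPS and the lowest fell within the range without LPS. The change was -0.68 ± 0.12 (adjusted p = 0.00416), or 1.6-fold lower, and of its other probes 1 was called, the pair giving -0.64 and -0.47. The partner light chain Slc7a8 was not called, at -0.0004 ± 0.21.

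Amino acid carriers of low signal also rose with cyclodextrin. The betaine and GABA carrier Slc6a12 had 6.35, 6.59 and 6.26 with cyclodextrin, against 5.95, 5.58 and 5.40 with PBS, a change of 0.76 ± 0.19 (adjusted p = 0.031). The acidic amino acid carrier Slc7a13 had 5.98, 5.82 and 6.04 with cyclodextrin, against 5.21, 5.27 and 5.11 with PBS, where it was detected on 1 of 3 arrays. It was at least 1.6-fold higher (adjusted p = 0.00212), and for both genes no array overlapped. The Slc6a12 call was lost without any of the 3 cyclodextrin arrays or PBS with LPS replicates 8 or 9, with adjusted p up to 0.114. Slc6a19 had 7.44, 7.60 and 7.69 with cyclodextrin, against 6.81, 6.86 and 6.96 with PBS, a change of 0.70 ± 0.12 without overlap (adjusted p = 0.00475), but its other probe gave -0.077 and was not called. The glucose-6-phosphate exchanger Slc37a2 had 9.93, 10.05 and 10.04 with cyclodextrin, against 9.41, 9.62 and 9.40 with PBS. All cyclodextrin arrays were higher, with 0.53 ± 0.10 (adjusted p = 0.00851), but its other probe gave 0.019 and was not called.

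The remaining lower calls with cyclodextrin were close to the threshold. The zinc carrier Slc39a13 had 9.46, 9.52 and 9.36 in cyclodextrin cells with LPS, against 10.00, 10.13 and 10.05 in PBS cells with LPS. Its groups were apart at -0.61 ± 0.13 (adjusted p = 0.017), with other probes at -0.59 and -0.54, and the call was lost without cyclodextrin replicate 24 or PBS with LPS replicates 8 or 9, with adjusted p up to 0.0708. Slc12a9, a member of the cation and chloride cotransporter family, had 9.06, 8.89 and 9.03 with cyclodextrin and 8.94, 9.23 and 8.92 with HDL, against 9.59, 9.36 and 9.44 with PBS. The changes were -0.47 ± 0.12 (adjusted p = 0.0419) with cyclodextrin and -0.44 ± 0.12 (adjusted p = 0.0929) with HDL, neither overlapping PBS. Its other probes were not called, at -0.46 and -0.42 with cyclodextrin and at -0.15 and 0.051 with HDL. The cyclodextrin call was lost in 8 of the 12 fits that left out 1 array, with adjusted p up to 0.172, and held without HDL replicates 17 and 18 and PBS without LPS replicates 1 and 2. The hexose carrier Slc2a8 had 7.38, 7.37 and 7.22 with cyclodextrin, against 7.84, 7.54 and 7.97 with PBS, a change of -0.45 ± 0.12 with no overlap (adjusted p = 0.0487). That call was lost in 10 of the 12 fits that left out 1 array, all but PBS with LPS replicate 8 and PBS without LPS replicate 1, with adjusted p up to 0.164, and its other probe gave 0.046. Other metal carriers with called LPS changes were not called with cyclodextrin, among them Slc40a1 at 0.45 ± 0.16 (adjusted p = 0.129) and Slc31a1 at -0.32 ± 0.12 (adjusted p = 0.144).

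Cyclodextrin and HDL were also set against each other under LPS, though they differed in contact time as well as in compound. Limma called 6 members higher and 3 lower with cyclodextrin than with HDL, beside 2.77% of all genes, 1.24% higher and 1.53% lower. Slc7a7 was the lowest of these 3, with 8.50, 8.12 and 8.41 in cyclodextrin cells, against 9.07, 8.99 and 9.22 in HDL cells. These do not overlap and gave -0.75 ± 0.12 (adjusted p = 0.004). Slc37a2 was higher with cyclodextrin, with 9.93, 10.05 and 10.04, against 9.35, 9.36 and 9.39 with HDL, again without overlap and at 0.64 ± 0.10 (adjusted p = 0.00543), while its other probe gave 0.082. Both calls held without each array in turn.

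The other 7 calls were less firm. Slc6a12, detected on 2 of 3 HDL arrays, was at least 1.79-fold higher (adjusted p = 0.0269) and Slc22a4 was higher at 0.66 ± 0.15 (adjusted p = 0.0287) with cyclodextrin. So were Slc25a1 at 0.45 ± 0.11 (adjusted p = 0.0407) and Slc27a3, which was detected on no HDL array and was at least 1.06-fold higher (adjusted p = 0.0418). The other Slc25a1 probe gave 0.090 and was not called. The glycine carrier Slc6a9 had 5.71, 5.96 and 5.53 with cyclodextrin, against 4.94, 5.12 and 4.64 with HDL, where it was detected on no array, and was at least 1.34-fold higher (adjusted p = 0.028). Slc35a5, of a Golgi nucleotide sugar transporter family, had 5.42, 5.70 and 5.36 with cyclodextrin, where 2 of 3 arrays detected it, against 6.05, 6.04 and 6.22 with HDL. It was at least 1.5-fold lower (adjusted p = 0.0277), but its other probe gave -0.31 and was not called. Slc39a13 was lower at -0.60 ± 0.13 (adjusted p = 0.0307), with other probes at -0.65 and -0.41. Each of these 7 calls was lost in 4 to 9 of the 12 fits that left out 1 array, with adjusted p up to 0.134. The higher calls fell to 1 without cyclodextrin replicate 23 or HDL replicate 18, to 2 without HDL replicate 16 and to 3 without cyclodextrin replicates 22 or 24. The lower calls were 1 without cyclodextrin replicate 24 or HDL replicate 18 and 5 without PBS without LPS replicate 1. With each array's detected share in the model 0 members were called in either direction, beside 19 genes higher and 19 lower over all genes. The largest fitted difference was in the lactate exporter Slc16a3, with 6.26, 5.59 and 5.42 in cyclodextrin cells, against 6.60, 6.46 and 7.32 in HDL cells, which did not overlap but missed the threshold at -1.03 ± 0.26 (adjusted p = 0.0537). Slc16a3 was detected on 2 of 3 cyclodextrin arrays, and its other probe gave 0.097.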

How the data were processed

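Per the submitters' processing notes, the authors exported the arrays with GenomeStudio, whose version is not given. For 45281 probes, the deposited files give a non-normalized signal, stored as digit strings and treated here as another unit than an intensity until rebuilt, a detection p-value beside each signal per the file headers, and a processed value by the authors, whose normalization the sources used here do not state. The decimal mark was missing from most deposited values. Of 543372 values 2.02% kept it. The mark was put back from the detection p in 75.5%, from the number of digits in 1.57% and from a curve of processed over raw values in 20.9%. On 9508 values between 100 and 1000 and 13182 between 1000 and 10000 whose place was known but hidden, 0 were placed wrongly, but the rule had been revised with the outcome of that test in view. After this, 1 value still lay about 10-fold away from its group's other arrays. Rebuilt processed values had a median of 73.7 on a linear scale.

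From these signals, neqc in limma 3.58.1 (R 4.3.3) computed background-corrected, quantile-normalised log2 values with an offset of 16, so low levels have compressed fold changes. Probe genes came from the platform annotation, with 1 symbol for 34885 probes, several for 18 and none listed for 10378. All 12 arrays entered 1 limma model of group means with 4 contrasts, and p-values were adjusted by Benjamini-Hochberg over all 9795 genes. Adjusted p-values of other probes came from a separate limma fit of all 15497 passing probes with 1 symbol, adjusted over those probes. On that scale the used probes of Slc12a9 (0.0520) and Slc2a8 (0.0601) were not called for cyclodextrin against PBS. Nor was that of Slc25a1 (0.0510) for cyclodextrin against HDL. The test was checked on simulated data. A probe with a detection p of 0.05 or above on every array of a group counts as not well above background there. A called fold whose dimmer group had the probe detected on none or only some of its arrays is given as a bound. The planned test assumed an intensity and was kept on the rebuilt signals. Values of different probes are not compared. The number of arrays limits the precision.

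The members and all lists were chosen with earlier results of these data known. Named genes are the 8 largest called changes in each direction of a comparison and a list of transporters known in macrophages. Of that list, Slc7a1, Slc1a3 and Slc16a1 did not pass the detection filter, and Slc7a5 and another gene are not reported here. Promoters are from RefSeq, build GRCm38.p6. Alternatives changed the background correction, scaling, offset, starting table, filter, probe rule, arrays in the fit, array weights and variance model.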

Additional observations from a re-analysis of the deposited data

How the results depend on the processing

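The LPS counts stayed within 1.5 times, at 33 to 59 members higher and 43 to 76 lower across the alternatives, and 38 to 45 and 50 to 59 when 1 array was left out. HDL called 1 member higher in place of 0 without background correction, with normexp, with offset 50, with the authors' processed values, with the mean of all probes and with trend and robust, and 5 higher and 5 lower with array weights. Without 1 array the HDL calls ranged over 0 to 0 higher and 1 to 3 lower. Cyclodextrin against PBS called 3 higher and 9 lower with median scaling over all probes, 3 lower with offset 1, without a filter or with the mean of probes, 10 lower with array weights, and 1 higher and 0 lower with the detected share per array in the model (a covariate). Without 1 array these ranged over 4 to 6 higher and 1 to 6 lower. Cyclodextrin against HDL called 3 higher and 14 lower with median scaling over all probes, 3 higher and 5 lower with a stricter filter, 5 lower without background correction or with the authors' values, 1 higher and 1 lower with only those groups fitted, and 0 of each with the covariate, with 1 to 7 higher and 1 to 5 lower without 1 array. The cause was not tested. The covariate and median scaling over the detected probes were chosen after seeing the data. Over the named genes, 4155 of 4370 values under other settings kept their direction and side of the threshold, 152 lost a call, 62 gained one and 1 reversed, Slc6a6 under LPS at 0.36 with median scaling over the detected probes. A block for the array chip was not run, since the headers name no chip. No paired analysis was possible because the groups share no replicate numbers in the labels. Members near background, 47 of which were detected on 3 to 11 arrays, have compressed changes.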
